A study of Homo sapiens with 6 samples.

Results

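Spliceosome and SR protein genes were followed as RNA targets of hnRNP A1 in PAR-CLIP libraries. The list held 55 genes, 41 of the core spliceosome and 14 of the SR protein group, and all 55 were found in the gene annotation. A binding site counted when the authors' annotation named a listed gene for it and when it also lay in that gene on the same strand. This left 46 of the 16269 clusters of the series, in 20 of the 55 genes. A further 13 clusters lay in a listed gene but were named for another gene with a nearer start, and the counts below leave them out unless position alone is stated.

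PAR-CLIP marks the RNA bases that a protein touches in living cells. Cells take up 4-thiouridine, ultraviolet light links this base to the bound protein, and the linked base is read as C instead of T, so that neighbouring converted reads can be joined into a cluster. All 6 libraries came from HEK293T, a human embryonic kidney line, transiently transfected with a myc-tagged hnRNP A1 construct, fed 4-thiouridine, cross-linked and precipitated through the tag. The A1dm libraries held RNA from the monomer band of hnRNP A1 with the R75D and R88D exchanges. The A1-HMW libraries held RNA from the slower band of the WT protein, which the paper calls possibly dimeric. The A1 libraries held RNA from the WT monomer band, and each group had 2 libraries. The protein was thus a tagged, transfected one in a single cell line, and no removal of the cells' own hnRNP A1 is described. The lists contained 232 and 596 clusters in A1dm, 671 and 865 in A1-HMW, and 5805 and 8100 in A1. They gave no read numbers, so the depth is unknown from them and a missing cluster may be a site with too few reads. The paper's own peaks, called with PARalyzer and reported with read numbers, were not analysed here. The amount of each pre-mRNA in the cells was not measured.

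The spliceosome removes introns by the stepwise joining of small nuclear ribonucleoproteins (snRNPs). U1 reads the 5′ splice site, U2 with the SF3A and SF3B proteins reads the branch site, and the tri-snRNP of U4, U6 and U5 brings the catalytic core, which PRP19-associated proteins and DEAH-box helicases drive through its cycle. SR proteins bind exonic enhancers and recruit these particles, and hnRNP A1 is the textbook antagonist of SRSF1 in the choice of splice sites. Genes of splicing factors are themselves spliced, and several SR protein genes are known to limit their own output through alternatively spliced exons.

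The most recurrent site lay in SNRPD3, which encodes SmD3, a subunit of the Sm ring that encircles the spliceosomal snRNAs. SNRPD3 had 1 cluster in A1dm replicate 1, 1 in A1dm replicate 2, 1 in each A1-HMW library and 1 in each A1 library, all at the same place. It was the 1 listed gene among 11 protein-coding genes with clusters in all 6 libraries (0.0546% of the 20163 genes tested, expressed in these cells or not). The site was chosen with its recurrence known, so the recurrence is a description and not a test. The gene lies on chromosome 22 from 24951926 to 24978020 of GRCh37 (hg19), plus strand. The site is in intron 2 of its 3 introns, 889 nucleotides past the upstream exon and 9262 before the downstream exon, 8.73% of the way into an intron of 10183 nucleotides. The nearest exon of any annotated transcript is 603 nucleotides away. All 6 clusters share the 23 nucleotides chr22:24954663-24954685, and they are printed here from the GRCh37 plus strand because the sequence shows what recurred. Capitals mark the longest unbroken run of A and G.
SNRPD3, A1dm replicate 1: GAGAGGGGAAAGGAAGGAGGAtt
SNRPD3, A1dm replicate 2: GAGAGGGGAAAGGAAGGAGGAttgagc
SNRPD3, A1-HMW replicate 1: atGAGAGGGGAAAGGAAGGAGGAtt
SNRPD3, A1-HMW replicate 2: gaaatGAGAGGGGAAAGGAAGGAGGAtt
SNRPD3, A1 replicates 1 and 2: aatGAGAGGGGAAAGGAAGGAGGAtt
The run of 21 purines and the pair of T after it are present in all 6 clusters. The clusters were 23 and 27 nucleotides long in A1dm, 25 and 28 in A1-HMW, and 26 in both A1 libraries. Their 5′ ends differed by up to 5 nucleotides, and 5 of the 6 ended at the same base.

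**Figure D1:**
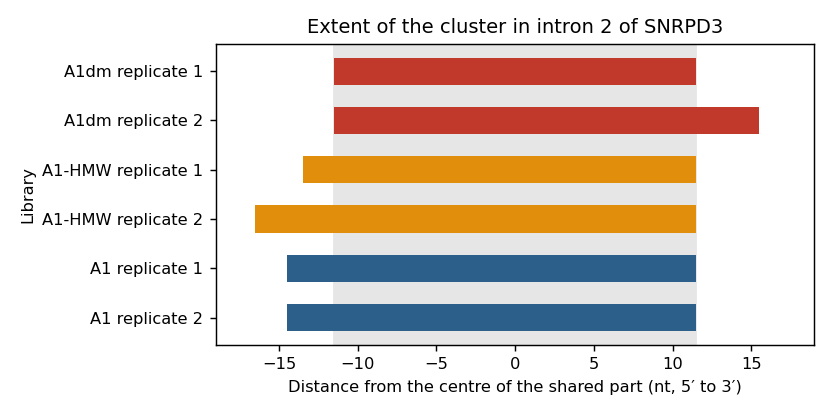
Extent of the SNRPD3 cluster in each library, as distance in nucleotides from the centre of the shared part (horizontal axis, 5′ to 3′) by library (vertical axis), with the 23 shared nucleotides shaded. A1dm replicate 2 alone reaches past the common 3′ end, and the 2 A1 bars are identical.

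A further 5 regions held clusters of more than 1 group, and in each the second group was A1-HMW beside A1. SNRPB encodes SmB/B′ and SNRPE encodes SmE, both Sm ring subunits. SNRPB had no A1dm cluster by this rule (1 by position alone, at another place, in A1dm replicate 2), 1 cluster in each A1-HMW library, and 1 in A1 replicate 2. SNRPE had no A1dm cluster, 1 in A1-HMW replicate 2 and 1 in each A1 library. SNRNP40, a WD-repeat protein of the U5 snRNP, had no A1dm cluster and 1 cluster in every A1-HMW and A1 library. PRPF4B, a kinase that phosphorylates tri-snRNP proteins, had 1 cluster in A1-HMW replicate 1 and 1 in each A1 library. SF3B3, a large scaffold subunit of SF3B, held a shared region in A1-HMW replicate 1 and both A1 libraries. All of these shared regions, SNRPD3 included, were intronic.

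In the order of the lines that follow, the printed A1 clusters lie at chr20:2450455-2450481 in intron 1 of SNRPB (minus strand) and chr1:203831781-203831803 in intron 2 of SNRPE (plus strand). The SNRNP40 cluster lies at chr1:31769091-31769116 in intron 1 (minus strand), and the PRPF4B cluster at chr6:4038926-4038948 in intron 3 (plus strand). The SF3B3 cluster lies at chr16:70582863-70582886 in intron 11 (plus strand). They are shown, on the strand of the gene with the longest purine run in capitals, as the sites that A1-HMW and A1 had in common.
SNRPB: gctGGAGGAGAAAGGAAGAAAGAAGGG
SNRPE: GAAAAAAGGAAGAGAGAAGGGGt
SNRNP40: gaatGAGGGAGGGAAGAAAAAAGGGA
PRPF4B: tGGGAGAGGAGGGAAGAGAGGAc
SF3B3: GGGGAAGGAGAAGGGAGtttgagc
In the printed clusters, their purine runs and that of SNRPD3 spanned 17 to 24 bases. The distance to the upstream exon was 852 nucleotides in SNRPB, 430 in SNRPE, 341 in SNRNP40, 1118 in PRPF4B and 511 in SF3B3, always less than the distance to the downstream exon. Over the 11 listed regions found in more than 1 library, the 5′ ends spread over 0 to 6 nucleotides (median 2) and the 3′ ends over 0 to 6 (median 3).

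Across all 25 regions that the 46 clusters formed, 5 held an A1dm cluster, 6 an A1-HMW cluster and 21 an A1 cluster. All 6 A1-HMW regions also held an A1 cluster, where 68.1% of all A1-HMW regions did. Of the 5 A1dm regions only SNRPD3 did, where 47.9% of all A1dm regions did. Read from the other side, 1 of the 21 A1 regions (4.76%) held an A1dm cluster, against 3.59% of all A1 regions. For A1-HMW the share was 6 of 21 (28.6%), against 9.0% of all A1 regions. Recurrence between the 2 libraries of a group was 1 of 5 listed regions in A1dm (4.28% of all A1dm regions), 3 of 6 in A1-HMW (9.95%) and 10 of 21 in A1 (31.5%). The 1 region in A1dm was SNRPD3, which was chosen with its recurrence known and is also among the 3 and the 10. These are small counts, and 1 region changes the A1dm and A1-HMW shares by a large step.

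By gene, 5 of the 55 (9.09%) had a cluster in either A1dm library, against 2.01% of all protein-coding genes. This number was 8 by position alone and 3 without either A1dm library. The number was 6 of 55 (10.9%) in A1-HMW, against 3.09% of all genes, and 18 of 55 (32.7%) in A1, against 16%. The comparison list of 75 other spliceosome genes, which holds further snRNP, exon junction, kinase and accessory splicing factors, gave 8.0% in A1dm, 13.3% in A1-HMW and 37.3% in A1. The listed genes thus had higher shares than all genes, expressed or not, in each group, and lower shares than the other splicing genes in A1-HMW and A1. Within the list the core spliceosome gave 4 of 41 genes (9.76%) in A1dm, 6 (14.6%) in A1-HMW and 15 (36.6%) in A1. The SR group gave 1 of 14 (7.14%) in A1dm, 0 in A1-HMW and 3 (21.4%) in A1.

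**Figure D2:**
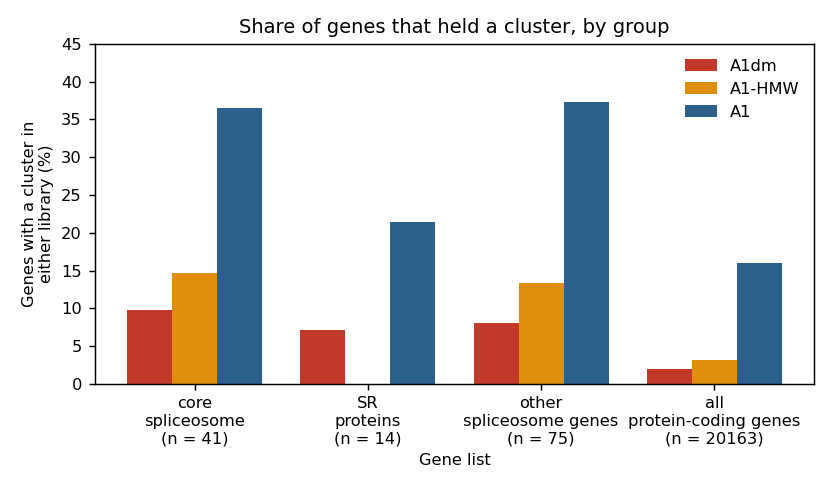
Share of genes with a cluster in either library of a group (vertical axis, percent), for 4 gene lists (horizontal axis), with bars for A1dm, A1-HMW and A1. The core spliceosome bars (9.76, 14.6 and 36.6%) are close to those of the 75 other spliceosome genes (8.0, 13.3 and 37.3%), and the SR bars have no A1-HMW value above 0.

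In clusters per 1000 clusters of the same library, the listed genes took 12.9 in A1dm replicate 1 and 5.03 in A1dm replicate 2. The A1-HMW libraries gave 7.45 and 4.62, against 2.58 and 1.98 for A1. Every A1dm and A1-HMW library thus lay above both A1 libraries, while the A1dm and A1-HMW values overlapped. Within each group the library with the shorter list had the higher rate, and the A1 lists were the longest. Group and list length therefore cannot be told apart in these rates. The group means were 8.98 ± 5.58 in A1dm, 6.04 ± 2.0 in A1-HMW and 2.28 ± 0.430 in A1 (SD, n = 2 each). The mean difference was 6.70 per 1000 for A1dm minus A1 and 3.76 for A1-HMW minus A1. The exact Clopper-Pearson 95% intervals, which cover counting error only, were 2.67 to 37.3 and 1.04 to 14.6 in A1dm, 2.42 to 17.3 and 1.26 to 11.8 in A1-HMW, and 1.45 to 4.26 and 1.13 to 3.21 in A1. The intervals of all A1dm and A1-HMW libraries met those of both A1 libraries. No test was run, because 2 libraries against 2 cannot give an exact two-sided permutation p below 0.33 and the genes were chosen with results of these data known.

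This rate rested in part on single sites and libraries. Without SNRPD3 it was 8.62 and 3.36 in A1dm, 5.96 and 3.47 in A1-HMW, and 2.41 and 1.85 in A1, and the A1dm minus A1 difference was 3.86. Without A1dm replicate 1, which had 232 clusters in all, that difference was 2.75. Clusters in any protein-coding gene also differed, at 582 and 530 per 1000 in A1dm, 538 and 494 in A1-HMW, and 492 and 458 in A1, and the part of this in the rates above was not tested.

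**Figure D3:**
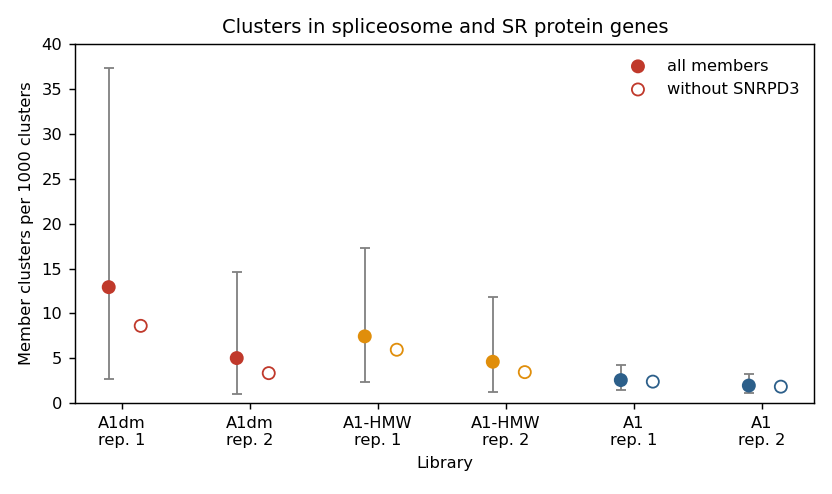
Clusters in the listed genes per 1000 clusters of each library (vertical axis) by library (horizontal axis), with 95% exact binomial intervals as bars, and the same without SNRPD3 as open circles. The A1 libraries, at 2.58 and 1.98, have the lowest values and the narrowest intervals.

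The remaining values are ordered by the role of the protein, beginning with the Sm ring. The 8 Sm genes had 1 and 1 clusters in A1dm, 2 and 3 in A1-HMW, and 2 and 3 in A1. By this rule it was the 1 class with as many A1-HMW clusters as A1 clusters, and 3 of the 8 genes, SNRPB, SNRPD3 and SNRPE, held all of them. The other Sm genes had none by this rule. By position alone SNRPF also held 1 cluster in each A1 library, and the Sm genes then had more A1 than A1-HMW clusters.

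Among 5 genes of the U1 snRNP, SNRNP70 and PRPF40B had clusters. SNRNP70 encodes the U1 protein that binds U1 snRNA and contacts SR proteins. It had no cluster in A1dm or A1-HMW and 1 in each A1 library. Its region lies in intron 7 of the main transcript and also in an exon of transcripts annotated as nonsense-mediated decay and as retained intron, so it counted as exonic here. PRPF40B encodes a WW-domain protein related to the yeast U1 protein Prp40. It had 1 cluster in A1dm replicate 1 and, at another place, 1 in A1 replicate 2. Both lie upstream of the main transcript, in introns of longer annotated transcripts.

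Among 12 genes of the U2 snRNP and branch site recognition, SF3A3, SF3B2 and SF3B3 had clusters. SF3B3 had 1 cluster in A1dm replicate 1, 1 in A1-HMW replicate 1, 1 in A1 replicate 1 and 2 in A1 replicate 2. Its A1dm cluster was in intron 1 and the others in introns 10 and 11, so the gene was common to the 3 groups but no site was. SF3B2, the SF3B subunit that contacts RNA near the branch site, had 1 cluster in each A1 library only. SF3A3, a subunit of SF3A, had 1 cluster in A1 replicate 1, 42 nucleotides from an exon.

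The 10 tri-snRNP genes had 0 and 1 clusters in A1dm, 2 and 1 in A1-HMW, and 6 and 6 in A1. PRPF8, the scaffold of the catalytic centre, had none in A1dm or A1-HMW and 2 in each A1 library. Its 4 clusters formed 3 regions, all in intron 24, of 10927 nucleotides, and 1 of the regions was found in both A1 libraries. PRPF31 and PRPF4, proteins of the U4/U6 particle, each had 1 cluster in both A1 libraries and none in A1dm or A1-HMW by this rule. By position alone PRPF31 also held 1 in intron 8 in A1dm replicate 2. PRPF6, which bridges U5 and U4/U6, had 1 cluster in A1dm replicate 2 and none in A1-HMW or A1. In the 6 genes of the PRP19 complex and DEAH-box helicases, clusters were found in A1 alone by this rule, while position alone added, outside A1, 1 in CDC5L in A1-HMW replicate 1. DHX15, a helicase of spliceosome disassembly, had 1 in A1 replicate 2, and DHX8, which releases spliced mRNA, had 1 in A1 replicate 1.

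**Figure D4:**
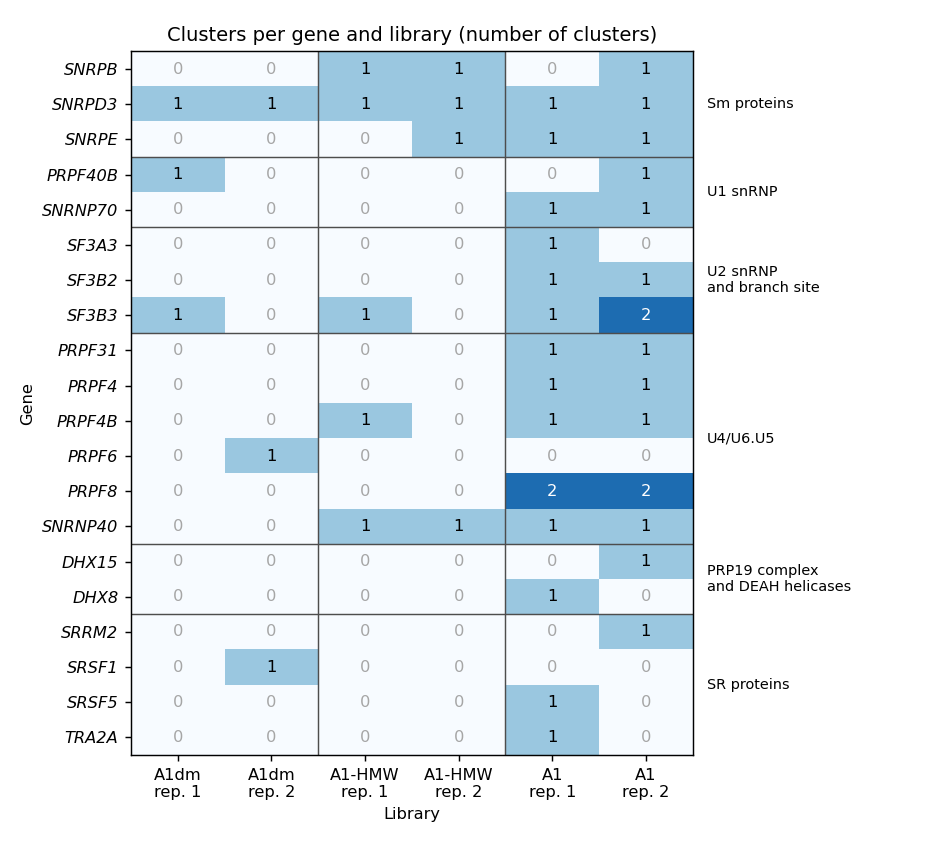
Number of clusters (shade and digit) in each of the 20 genes with any cluster (vertical axis, grouped by role) in the 6 libraries (horizontal axis). SNRPD3 alone is filled in all 6 columns, and the tri-snRNP and U2 genes are filled mainly in the 2 A1 columns.

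Clusters in both A1 libraries were found in 10 of the 55 genes (18.2%), against 7.95% of all protein-coding genes and 26.7% of the 75 other spliceosome genes. All 10 were core spliceosome genes. Of these, 8 had no A1dm cluster (14.5% of the list, against 6.84% of all genes), namely PRPF31, PRPF4, PRPF4B, PRPF8, SF3B2, SNRNP40, SNRNP70 and SNRPE, of which PRPF31 held an A1dm cluster by position alone. A cluster in both A1 libraries and in no A1-HMW library was found in 5 (9.09%, against 5.86%), namely PRPF31, PRPF4, PRPF8, SF3B2 and SNRNP70. Among all 1603 genes with clusters in both A1 libraries, 14.0% had an A1dm cluster and 26.3% an A1-HMW cluster. Among the 10 listed genes the numbers were 2 for A1dm (SF3B3 and SNRPD3) and 5 for A1-HMW. In the other direction, 3 of the 5 listed genes with an A1dm cluster also had an A1 cluster, against 74.3% of all such genes, and 6 of the 6 with an A1-HMW cluster did, against 84.1%. Since the A1 lists are many times longer, absence from the shorter lists is the usual state of a gene and was not tested as a loss.

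The regions of those 5 genes are printed because they recurred in A1 and were missing from both other groups. They lie at chr19:54621704-54621726 in coding exon 2 of PRPF31, chr9:116038894-116038921 in coding exon 2 of PRPF4, and chr17:1573145-1573167 in intron 24 of PRPF8. The other 2 lie at chr11:65830948-65830969 in coding exon 18 of SF3B2 and chr19:49606078-49606107 in SNRNP70, whose last 30 bases are shown. PRPF8 is on the minus strand and the other genes are on the plus strand.
PRPF31: GAAGAGGAGGAAGGAGGAAGcta
PRPF4: ggaagtttGGAAGAGAAGGAGAGGGAGc
PRPF8: agtGAGAAGAGGAGAGGGAGGAA
SF3B2: AGAGGAAGAGGAAGAAAGtgat
SNRNP70: gacttGAGAGAGGGAAAGAGAGAGAGAGGc
Of these 5 regions, 4 were exonic, with SNRNP70 counted so through its other transcripts. Over all 15 regions found in A1 alone, 6 were exonic and 9 intronic.

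A cluster in A1dm and none in A1 was found in 2 listed genes (3.64%), PRPF6 and SRSF1, against 0.516% of all protein-coding genes. By position alone U2AF2 also had an A1dm cluster, in replicate 2, and none in A1. These shares are over all genes. Among genes with an A1dm cluster, 3 of the 5 listed ones also had an A1 cluster, against 74.3% of all, as given above. At the level of regions, 4 of the 5 A1dm regions were in A1dm alone, each in 1 library. They lay in PRPF40B and SF3B3 in replicate 1 and in PRPF6 and SRSF1 in replicate 2. Their sequences are printed to set beside those of the other groups, and for PRPF40B, PRPF6 and SF3B3 this was chosen after their values were seen. PRPF40B is at chr12:49964177-49964200, PRPF6 at chr20:62624765-62624791 in coding exon 4, SF3B3 at chr16:70558333-70558362 in intron 1, all on the plus strand. SRSF1 is at chr17:56080982-56081001, minus strand, in the 3′ untranslated part of exon 4.
PRPF40B: gagtGAAAGAGGAGAAAGGAAAAc
PRPF6: AAAGGGAGAAAGAAGAAAtagagaaat
SF3B3, intron 1: ttggaggatGGAGAAGAtgcagtgagcaat
SRSF1: AAAGGGGAAAGGGGGGGttt
The SF3B3 sequence, with a longest run of 8 purines, was the 1 region of the 25 without 12 purines in a row. The longest runs of the other 3 were 19 bases in PRPF40B, 18 in PRPF6 and 17 in SRSF1.

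SR protein genes carried few clusters. There were 0 and 1 in A1dm, 0 and 0 in A1-HMW, and 2 and 1 in A1, in 4 genes with 1 cluster each. A count of 0 allows up to 12.9 per 1000 clusters in A1dm replicate 1, and up to 4.47 and 3.47 in A1-HMW replicates 1 and 2. SRSF1, the founding SR protein, had its cluster in A1dm replicate 2. SRSF5 and TRA2A had theirs in A1 replicate 1, and SRRM2 in A1 replicate 2. TRA2A binds GAA-rich enhancers, and SRRM2 is a large scaffold protein of nuclear speckles. No SR region was found in 2 libraries. The clusters of SRSF5 and TRA2A were intronic. The SRRM2 cluster lies at chr16:2808516-2808540 in coding exon 5 (plus strand) and is printed, beside that of SRSF1 above, as an exonic SR site.
SRRM2: GAAGAAGAAGAAAAAGAAGAAAGAt
The other 10 SR genes, SRRM1, SRSF2, SRSF3, SRSF4, SRSF6, SRSF7, SRSF9, SRSF10, SRSF11 and TRA2B, had no cluster.

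Set against each other per gene, core spliceosome genes had 0.0610 clusters and SR genes 0.0357 in A1dm, as means over the libraries. In A1-HMW the values were 0.110 for core and 0 for SR genes, and in A1 they were 0.341 for core and 0.107 for SR genes. Core exceeded SR in both A1-HMW libraries (0.122 and 0.0976, against 0 and 0) and both A1 libraries (0.317 and 0.366, against 0.143 and 0.0714). In A1dm the order differed between libraries, with 0.0732 and 0.0488 for core against 0 and 0.0714 for SR genes. The median gene span was alike, at 21.2 kb for core and 21.7 kb for SR genes, and 27.2 kb for all protein-coding genes. The total span was 1368 kb over 41 core genes and 327 kb over 14 SR genes, which is more per core gene. Per 100 kb of gene span, core genes had 0.183 clusters in A1dm, 0.329 in A1-HMW and 1.02 in A1, and SR genes 0.153, 0 and 0.459. All protein-coding genes had 0.0163, 0.0285 and 0.238 in the same order of groups. The SR values rest on 4 clusters and the number of transcripts per gene was not measured.

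A further 25 core genes had no cluster by the same rule. They were CDC5L, DHX16, DHX38, EFTUD2, PRPF19, PRPF3, PRPF38B, PRPF39, SF1, SF3A1, SF3A2, SF3B1, SF3B4, SNRNP200, SNRPA, SNRPA1, SNRPB2, SNRPC, SNRPD1, SNRPD2, SNRPF, SNRPG, SNRPN, U2AF1 and U2AF2. Of these, CDC5L, SF3A1, SNRPF and U2AF2 did hold clusters by position, for which the authors' annotation named another gene with a nearer start.

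Introns held 4 of 6 listed clusters in A1dm, 9 of 9 in A1-HMW and 21 of 31 in A1. By library the intronic clusters were 3 of 3 and 1 of 3 in A1dm, 5 of 5 and 4 of 4 in A1-HMW, and 11 of 15 (73.3%) and 10 of 16 (62.5%) in A1. Among all clusters placed in a gene, the intronic shares were 63.9 and 60.7% in A1dm, 76.4 and 80.9% in A1-HMW, and 82.6 and 84.0% in A1. The intronic share of the listed clusters was below that of all clusters in both A1 libraries and above it in both A1-HMW libraries. All clusters were placed by position, without the naming rule of the listed ones, and the difference was not tested. With the authors' own annotation of introns, which calls sites such as that of SNRPD3 transcript end or promoter, the A1-HMW minus A1 difference of 32.1 points turned to -6.25. The mean intronic share of the listed clusters was 66.7 ± 47.1% in A1dm, 100 ± 0% in A1-HMW and 67.9 ± 7.66% in A1 (SD, n = 2 each). The 2 A1dm libraries were farther apart than the A1dm or A1-HMW mean was from the A1 mean. Of the 8 exonic regions, 6 were in coding sequence, 1 was in the SRSF1 3′ untranslated region and 1 was the SNRNP70 region.

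Most intronic sites were away from splice sites. The median distance to the nearest annotated exon was 608 nucleotides in A1dm (n = 4 clusters, 90 to 1670), 603 in A1-HMW (n = 9, 341 to 1118) and 441 in A1 (n = 21, 42 to 2566). A site found in more than 1 library counted once per library here, so these n are not numbers of separate sites. The A1dm and A1-HMW medians both fell on the SNRPD3 site. Over all intronic clusters the medians were 1792.5, 2186 and 2572 nucleotides in the same groups. Within 300 nucleotides of an exon lay 1 of 4 in A1dm, 0 of 9 in A1-HMW and 3 of 21 in A1 (14.3%), against 18.2, 13.6 and 12.3% of all intronic clusters. The listed medians were below those of all intronic clusters in each group, in genes whose median span of 21.2 kb was below the 27.2 kb of all protein-coding genes. The listed clusters also had to be named for their gene as that of the nearest start, while all intronic clusters were placed by position alone. The parts of gene length and of this naming rule in the difference were not tested. Of the 15 intronic regions on the main transcript of their gene, 12 were closer to the upstream than to the downstream exon, and 8 were in intron 1 or 2. The same shares over all intronic clusters are not given here, so these counts cannot be read as a trait of the listed genes.

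**Figure D5:**
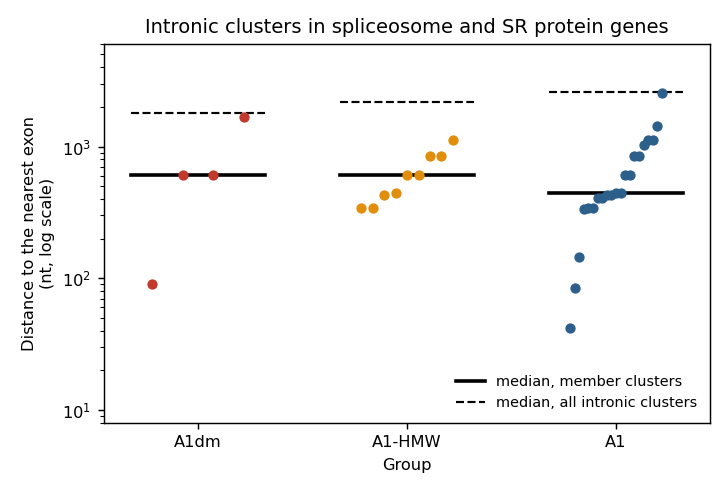
Distance from each intronic cluster in the listed genes to the nearest exon of any transcript of its gene (vertical axis, nucleotides, log scale) in A1dm, A1-HMW and A1 (horizontal axis), with the median of these clusters as a solid line and of all intronic clusters as a dashed line. The solid lines (608, 603 and 441) lie below the dashed lines (1792.5, 2186 and 2572).

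The sites had a common sequence character, long purine runs. A run of at least 12 A or G on the strand of the gene was present in 24 of the 25 regions. In 1 cluster taken per region, the longest runs spanned 8 to 24 bases with a median of 20. Over all listed clusters the longest run was 28 bases, in A1-HMW. By cluster the share was 5 of 6 (83.3%) in A1dm, 9 of 9 in A1-HMW and 31 of 31 in A1, against 60.5, 85.9 and 97.3% of all clusters of the same groups. The A1dm share depended on the naming rule, since by position alone it was 55.6%, below that of all A1dm clusters. The purine content of the listed clusters was 84.4 and 89.2% in A1dm, 91.0 and 92.7% in A1-HMW, and 90.9 and 90.5% in A1. For all clusters it was 81.6 and 78.5% in A1dm, 87.4 and 88.2% in A1-HMW, and 90.7 and 90.7% in A1. The listed and all A1 clusters thus had nearly the same purine content, while the listed A1dm clusters had higher values than all A1dm clusters in both libraries, on 3 clusters each.

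Shorter motifs were looked for on the strand of the cluster only. TAGGG, the DNA spelling of the core of the known high-affinity hnRNP A1 site, was in none of the 46 clusters, and it was in 1.72% of all A1dm, 1.83% of all A1-HMW and 2.32% of all A1 clusters. GAGGAA was in 0 of 6 listed clusters in A1dm, 0 of 9 in A1-HMW and 7 of 31 (22.6%) in A1, in 4 regions, those of DHX8, PRPF31, PRPF8 and SF3B2. Among all clusters it was in 21.2, 32.5 and 33.5% in the same groups. The last base of the region was T in 13 and C in 8 of the 25. Clusters are called from T-to-C conversions, and every cluster with a reference sequence held a T.

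Of the 75 other splicing genes, 29 had a cluster, with 1 and 5 clusters in A1dm, 6 and 5 in A1-HMW, and 32 and 35 in A1. CWC15, a spliceosomal protein, had 0 and 1 in A1dm, 1 and 1 in A1-HMW, and 1 and 1 in A1. RBM25, a U1-associated splicing regulator, had 0 and 1 in A1dm, 1 and 0 in A1-HMW, and 2 and 2 in A1. The SR protein kinases SRPK1 and SRPK2 had none in A1dm. SRPK1 had 1 and 0 in A1-HMW and 2 and 2 in A1, and SRPK2 had 1 and 0 in A1-HMW and 2 and 3 in A1. Each kinase was hit in both A1 libraries, unlike any of the 14 SR genes by this rule. In both A1 libraries the authors' annotation also named SRSF5 for a cluster that lay outside the gene and was left out.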

How the data were processed

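PAR-CLIP was done on HEK293T cells in 3 groups of 2 libraries. The paper calls the experiments independent, and each library was 1 sample. According to its methods, the authors trimmed reads with BBduk, filtered off ribosomal RNA, mapped with STAR and used wavClusteR and PARalyzer. The submitters' processing notes name Bowtie and hg19. Versions are not given in the sources used here. Per the file headers, each deposited list is a wavClusteR cluster file of 1 library, to which HOMER added gene names from an Ensembl set on hg19. The deposited score was 0 in every line and was not used. The deposited positions were the only measurement, and the list sizes, 232 to 8100 clusters, limit the precision. The listed start lay 1 nucleotide above the start in every cluster's identifier, and the identifier's start was used, with which every cluster with sequence holds a T.

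Clusters were placed by strand on GENCODE 44 lifted to GRCh37, exons before introns, with Python 3.11.15, pandas 2.3.3, numpy 2.4.6 and SciPy 1.17.1. The authors' gene name, that of the nearest start, was given to 53 clusters for a listed gene. Of these, 7 did not lie in it and were left out. Same-strand clusters with 1 or more nucleotides in common formed a region. Gene lookup by position and strand was checked on planted clusters, and the overlap rule on a few set cases. The naming rule, the building of regions and the purine runs were not checked in this way. Every gene with a cluster was to be named, with positions and sequences for SNRPD3, for regions of more than 1 group or of both libraries of a group, and for SR genes, of which 2 sites are not reported here. The genes, lists and rules were chosen with earlier results of these data known. No test was run. Alternatives were the gene name or position alone, the authors' introns, the listed start, other purine runs, gene span and the replicate block. Further ones were clusters in genes as denominator, SRSF genes alone, a larger overlap, and leaving out SNRPN, SNRPD3 or each library.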

Additional observations from a re-analysis of the deposited data

How the results depend on the processing

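Of 138 recomputed values for 18 results, 124 kept their direction and stayed within the spread of the libraries or, for counts, within 1.5 times. Some of these could not fail. SNRPN held no cluster, so leaving it out changed no cluster count, and a replicate block cannot move a mean difference in balanced pairs. Without 1 A1 library, genes with clusters in both became a count in the other alone. The 124 are therefore no measure of robustness. By the authors' gene name alone, core minus SR clusters per gene in A1dm turned to -0.0105. By position alone, that difference in A1 was 0.344, 8 listed genes had an A1dm cluster, and 55.6% of the A1dm clusters had a run of 12 purines. With the authors' annotation of introns, the intronic share of A1-HMW minus A1 turned to -6.25 points, because that annotation calls sites such as the one in SNRPD3 promoter or transcript end instead of intron. Per 100 kb of span, core minus SR was 0.564 in A1 and 0.329 in A1-HMW. A run of 16 purines was in 96.8% of the A1 clusters.

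Leaving out 1 library at a time, A1dm minus A1 ranged over 2.75 to 10.7 clusters per 1000, A1-HMW minus A1 over 2.34 to 5.17, and A1dm minus A1-HMW over -1.0 to 6.89. The value of -1.0 was without A1dm replicate 1. The intronic share of A1dm minus A1 ranged over -34.6 to 32.1 points, with 32.1 without A1dm replicate 2 and 4.17 without A1 replicate 1. Core minus SR in A1dm ranged over -0.0226 to 0.0732, the negative value without A1dm replicate 1. Without either A1dm library, 3 to 3 listed genes had an A1dm cluster. No value could be given for regions found in both A1 libraries without 1 of them. Without SNRPD3, a setting chosen after seeing the data, the differences were 3.86 for A1dm minus A1, 2.58 for A1-HMW minus A1 and 1.27 for A1dm minus A1-HMW.

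With the replicate number as a replicate block, the differences were 6.70, 3.76 and 2.94 per 1000 clusters, and -1.25 and 32.1 points for the intronic shares, equal to those without it, since in balanced pairs a block cannot move a mean difference.

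Depth is unknown. The A1dm values rest on 6 clusters and the A1-HMW values on 9, and a change of 1 cluster moves each of them.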

Other observations

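Clusters that lie in a listed gene by position, but for which the authors' annotation names another gene, numbered 13. They were 0 and 3 in A1dm, 1 and 0 in A1-HMW, and 4 and 5 in A1. The 3 A1dm clusters, all in replicate 2, lay in intron 8 of PRPF31, in SNRPB next to a small nucleolar RNA, and in the 3′ untranslated region of U2AF2, which encodes the large subunit of the polypyrimidine tract factor. Their longest purine runs were 6, 11 and 10 bases. In CDC5L, a PRP19 complex protein, intron 13 held such a cluster in A1-HMW replicate 1 and, at the same place, in A1 replicate 2. In SF3A1 and in PRPF40B a region of this kind was found in both A1 libraries, with runs of 16 and 25 purines.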
